A study of Mus musculus with 20 samples.

Results

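The replication-independent histone variants are histones made throughout the cell cycle rather than only during DNA replication. They were taken as the 8 rows of the deposited expression table whose gene symbol is H2afz, H2afv, H2afx, H2afy, H2afy2, H3f3a, H3f3b or H1f0, out of 45700 genes. All 8 were above 0 in all 20 libraries and passed the filter on low values. The libraries come from brains of the "Taiwanese" mouse model of spinal muscular atrophy (SMA) on a congenic FVB background. SMA mice (Smn-/-; SMN2tg/0) have no functional mouse Smn and carry 2 copies of the human SMN2 gene on 1 allele, and the controls were heterozygous littermates (Smn-/+; SMN2tg/0) that carry the same transgene. Total cytoplasmic RNA (all sucrose gradient fractions pooled) and polysomal RNA (only the fractions with mRNAs carrying several ribosomes) were sequenced after removal of ribosomal RNA. Each genotype and fraction had 2 libraries from postnatal day 5, when the disease is early-symptomatic, and 3 from postnatal day 7, when it is late-symptomatic, each made from a mouse brain. Values are FPKM, fragments scaled for transcript length and for the mapped fragments of the library, so levels may be compared between genes. No counts were used, so the depth behind a value is unknown and no counting interval is given.

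The labelled tissue was checked against cell type markers. Neuronal Snap25 lay between 182 and 417 FPKM, astrocytic Slc1a3 between 81.6 and 159 FPKM, and oligodendrocytic Mbp between 54.2 and 267 FPKM over the 20 libraries, while the liver gene Alb stayed at or under 0.190 FPKM. The neuronal marker Tubb3 was listed at 0 in both early-symptomatic control polysomal libraries and at up to 1051 FPKM elsewhere, so no fold is given for it. The muscle gene Acta1, which the table places in the same merged locus, was also listed at 0 in both, and none of the 8 variants was listed at 0 in any library. The gene-level value of Smn1, the mouse Smn gene, did not separate the genotypes. It lay between 8.61 and 17.5 FPKM over all libraries, and the difference of SMA from control was between -0.09 and 0.11 on the log2 scale in the 4 stages and fractions, without passing the test in any of them (limma, unadjusted p under 0.05). A gene-level value covers parts of the gene outside the disrupted part, and whether reads of the human transgene were assigned to it was not tested, so Smn1 is no check of the genotype labels. The brain was measured as a whole, so fewer cells of a type and less RNA per cell cannot be told apart in any result that follows.

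In a nucleosome, DNA is wrapped around core histones H2A, H2B, H3 and H4, and a linker histone H1 binds where the DNA enters and leaves. Most histone protein comes from replication-dependent genes, which lack introns, are read during S phase, and give mRNAs that end in a conserved stem-loop in place of a poly(A) tail. The variants are put into chromatin outside replication by their own chaperones, and the H3 variant encoded by H3f3a and H3f3b is known to build up in neurons once they stop dividing. H2afz and H2afv encode the H2A.Z proteins, found around transcription start sites. H2afx encodes H2A.X, which is phosphorylated at DNA breaks. H2afy and H2afy2 encode the macroH2A proteins, H2A variants with a large globular macro domain, and H1f0 encodes a linker histone typical of cells that have left the cell cycle.

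In the Gencode annotation (M21, build GRCm38), H2afz (ENSMUSG00000037894.11) lies at chr3:137864487-137866922 on the plus strand and H2afv (ENSMUSG00000041126.14) at chr11:6427229-6444443 on the minus strand, each with 5 exons in its longest coding transcript and 128 codons. H3f3a (ENSMUSG00000060743.10) lies at chr1:180800832-180813943 with 4 exons and H3f3b (ENSMUSG00000016559.12) at chr11:116021912-116027962 with 6 exons, both on the minus strand and both with 136 codons. H2afy (ENSMUSG00000015937.12, chr13:56073619-56136361) and H2afy2 (ENSMUSG00000020086.6, chr10:61738665-61784147), both on the minus strand, have 9 exons and 372 codons each. H2afx (ENSMUSG00000049932.3, chr9:44334694-44336077) and H1f0 (ENSMUSG00000096210.1, chr15:79028450-79030504), both on the plus strand, consist of 1 exon each, with 143 and 194 codons.

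The H3f3a and H3f3b coding sequences differ at 95 of 411 bases (76.9% identity) and at 0 of 136 residues, so the pair gives the same protein from mRNAs that reads can tell apart. H2afz and H2afv differ at 81 of 387 bases (79.1% identity) and at 3 of 128 residues. The first 60 coding bases of each pair show how far the mRNAs have diverged, and capitals mark the 13 bases at which the members of a pair differ in this stretch.
H3f3a: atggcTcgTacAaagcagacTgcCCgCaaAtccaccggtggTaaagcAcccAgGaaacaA
H3f3b: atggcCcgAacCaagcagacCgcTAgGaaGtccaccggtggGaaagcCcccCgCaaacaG
H2afz: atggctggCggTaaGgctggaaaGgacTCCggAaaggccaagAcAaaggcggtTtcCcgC
H2afv: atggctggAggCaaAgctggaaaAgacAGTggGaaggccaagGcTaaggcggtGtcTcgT

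Whether the variant transcripts hold the stem-loop of the replication-dependent mRNAs was searched in the reference transcripts. The 16-base run found most often in the last 100 bases of the replication-dependent transcripts has a stem of 6 bases on either side of a loop of 4 bases. It stood in 26 of 67 replication-dependent genes (38.8%), in 28 of 21901 coding genes (0.128%) and in none of the 8 variants. A wider form chosen after that result was seen, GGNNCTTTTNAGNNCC with a stem whose bases pair, stood in 44 of 67 replication-dependent genes (65.7%), in 49 coding genes (0.224%) and in 1 variant, H2afx. The H2afx site is shown in capitals with 7 bases on either side. It begins at base 547 of the 1384-base transcript, 46 bases after the stop codon, in the 3' UTR, so the annotated transcript goes on well beyond it. H2afx is known to give both a stem-loop and a polyadenylated mRNA. The kit did not select for poly(A), so both forms could be sequenced, and gene-level values do not separate them.
most frequent run: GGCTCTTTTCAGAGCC
H2afx: ccacaaaGGCCCTTTTAAGGGCCaccacct

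Promoters from RefSeq (build GRCm38.p6, 250 bases before to 50 bases after the start) matched 7 of the 8 variants. They were searched for CCAAT on either strand (ATTGG on the other), a motif bound by the factor NF-Y and common in histone promoters, and the search was chosen after the sequences were seen. Of the 7 promoters, 5 held CCAAT, against 37.4% of 32851 promoters, and 3 held at least 3 copies, against 3.37% of promoters. H3f3b and H2afv each had 4 copies, H2afz had 3, H3f3a and H2afy2 had 1, and H2afy and H1f0 had 0. The motifs TTTGAA and TATAAA were searched as well. TTTGAA stood in H2afv alone, against 17.9% of promoters, and TATAAA in H3f3b alone, against 13.6%. The promoters of H2afz (chr3:137864237-137864536, plus strand), H3f3a (chr1:180813556-180813855, minus strand) and H3f3b (chr11:116024455-116024754, minus strand) are shown because the levels of these 3 genes moved together over the libraries, as described further on. Capitals mark CCAAT or ATTGG, and a match says only that these letters are there.
H2afz: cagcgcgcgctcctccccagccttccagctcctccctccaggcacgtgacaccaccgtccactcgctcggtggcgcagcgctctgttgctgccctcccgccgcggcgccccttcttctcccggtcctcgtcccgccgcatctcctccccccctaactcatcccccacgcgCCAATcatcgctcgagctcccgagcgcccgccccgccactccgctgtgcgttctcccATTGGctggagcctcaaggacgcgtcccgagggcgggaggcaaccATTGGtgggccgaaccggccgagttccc
H3f3a: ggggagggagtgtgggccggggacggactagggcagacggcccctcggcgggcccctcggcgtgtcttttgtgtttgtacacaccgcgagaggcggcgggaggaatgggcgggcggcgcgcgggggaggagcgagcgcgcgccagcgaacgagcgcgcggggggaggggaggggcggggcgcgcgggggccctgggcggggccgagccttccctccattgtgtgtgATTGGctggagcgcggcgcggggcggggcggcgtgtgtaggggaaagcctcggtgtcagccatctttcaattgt
H3f3b: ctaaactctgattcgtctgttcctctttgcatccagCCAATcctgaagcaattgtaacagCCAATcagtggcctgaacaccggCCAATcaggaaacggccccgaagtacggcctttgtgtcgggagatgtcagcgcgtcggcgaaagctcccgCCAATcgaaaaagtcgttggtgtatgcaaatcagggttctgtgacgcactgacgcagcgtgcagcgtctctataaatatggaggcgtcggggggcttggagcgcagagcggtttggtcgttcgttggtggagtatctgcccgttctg

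H2afz, H3f3a and H3f3b made up most of the variant mRNA in every group, and H2afx as listed was the least abundant member. In early-symptomatic control total RNA the levels were, in order, 430 FPKM for H2afz, 412 for H3f3a, 306 for H3f3b, 73.7 for H2afv, 47.5 for H2afy, 42.5 for H1f0, 35.2 for H2afy2 and 8.20 for H2afx (means, n = 2). Only the H2afz and H3f3a libraries overlapped between neighbours in that order. The 3 most abundant genes held 31.7%, 30.4% and 22.6% of the summed level of the 8. In late-symptomatic control total RNA (n = 3), H2afz at 245 ± 15 FPKM (SD), H3f3a at 243 ± 39.1 FPKM and H3f3b at 204 ± 30.6 FPKM were neighbours whose libraries overlapped, and H2afx was again last at 14 ± 0.75 FPKM. H2afy and H2afy2 also overlapped there, at 28.9 ± 1.99 and 25.3 ± 3.82 FPKM. Summed over the 8 genes, the variants stood at 1355 FPKM in control against 1142 FPKM in SMA early-symptomatic total RNA, and at 855 and 908 FPKM in late-symptomatic total RNA.

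**Figure D1:**
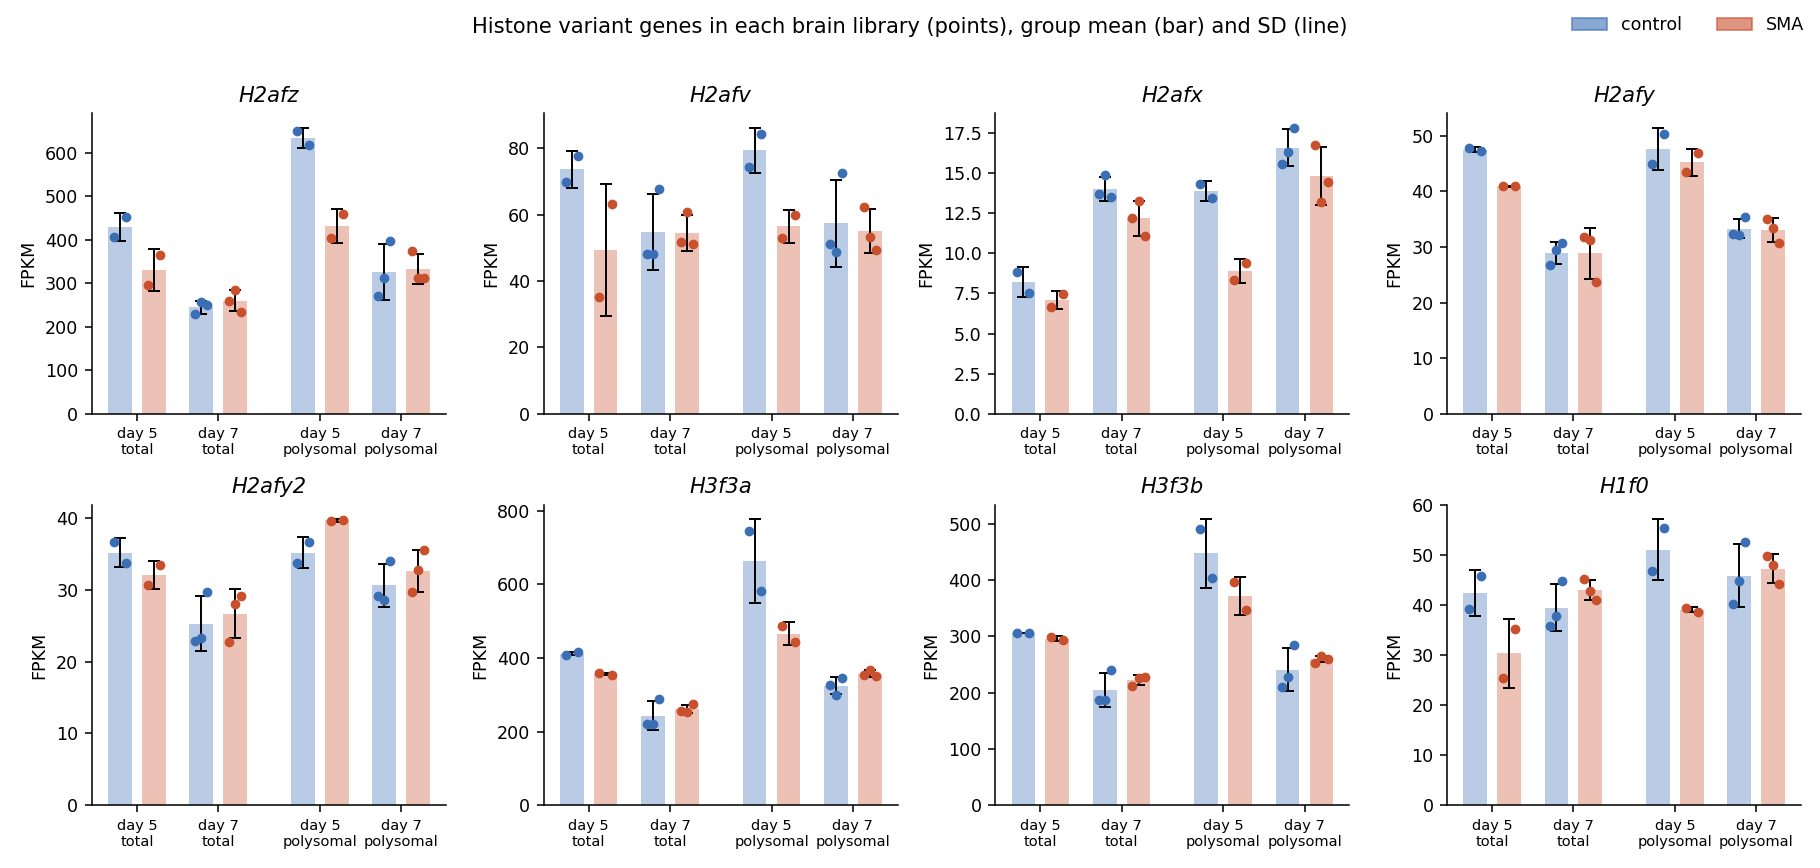
FPKM of the 8 variants in each group (1 panel per gene, each with its own axis from 0; bars are means, lines the SD, points the libraries, n = 2 at day 5 and n = 3 at day 7). H2afz, H3f3a and H3f3b stood highest in the early-symptomatic control polysomal libraries, with means of 634, 663 and 447 FPKM, and H2afx as listed stood higher at day 7 than at day 5 in all 4 pairs of groups, which does not hold in polysomal RNA once its overlapping gene AC122428.1 is added.

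Part of these levels rests on sequence that other genes share. Of the 100-base windows of the reference H2afz transcript, 58.8% also occur on the opposite strand of Tmcc1, a gene on another chromosome that lay between 17.4 and 35.3 FPKM. For H3f3a the share was 26.3%, and 19.9% of its windows overlap the opposite-strand non-coding gene Gm17275, which lay between 79.0 and 197 FPKM. The share was 0% for H2afv and at most 6.55% for the other 5 genes. H2afx contains on its opposite strand the 141-base miRNA gene AC122428.1, which lay between 23.7 and 305 FPKM. The kit marks strand, but per the study's methods all programs ran with default settings, which in TopHat and Cufflinks treat reads as unstranded, so reads from the members of these pairs cannot be told apart by strand. H2afx is therefore also given with AC122428.1 added, weighted by annotated length (141 against 1384 bases). The short gene holds only 42 of the 100-base windows, against 1285 in H2afx, so this weight may overstate what it adds. Whether it does was not tested, and all values with it added are an alternative, not a correction. With this weight H2afx stood at 44.2 FPKM in early-symptomatic control polysomal RNA, above H2afy2 at 35.2 FPKM there. It stood between 14.5 and 24.7 FPKM in the other groups, where it was still the lowest of the 8.

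The genotypes were then compared at each stage in each fraction, the question being which variant mRNAs differ in amount or in polysomes with disease. At the early-symptomatic stage H2afy was called lower in SMA total RNA, and H2afz, H2afv, H2afx and H1f0 were called lower in SMA polysomal RNA. As listed, all 8 stood lower in both SMA libraries than in either control library in total RNA, as did 22.5% of all genes. In polysomal RNA 6 of the 8 did. The share of all genes lower there is not given, and 50.5% did not overlap in either direction. At the late-symptomatic stage the medians of the 8 differences were near 0. A gene was called at an unadjusted p under 0.05, the threshold of the study's methods, from limma on log2(FPKM + 0.1), and 0 of the 8 passed at an adjusted p under 0.05 in any of these 4 comparisons, where 0.164%, 0.649%, 0.111% and 0.0918% of all genes did (early total, early polysomal, late total and late polysomal RNA).

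In early-symptomatic total RNA the macroH2A gene H2afy passed the unadjusted threshold. It read 47.8 and 47.2 FPKM in the control libraries and 40.9 and 41.0 FPKM in the SMA libraries. Both SMA libraries lay below both controls, and the spread within each genotype was under 1 FPKM. The difference was -0.21 on the log2 scale (SE 0.05, n = 2 each, adjusted p = 0.551, limma). Over all 15247 genes tested, 8.25% were called and 3.89% were called lower, against this 1 of 8, and 22.5% stood lower without overlap (47.6% in either direction), against 8 of 8. The median difference of the 8 was -0.21, with -0.64 for H2afv, -0.50 for H1f0, -0.39 for H2afz, -0.21 for H3f3a and H2afx, -0.13 for H2afy2 and -0.05 for H3f3b, against 0.01 for all genes. H3f3b was the least different, with 306 and 306 FPKM in control against 299 and 293 FPKM in SMA, and its sign turned to 0.10 after quantile normalization and to 0.01 after a correction for gene length. With AC122428.1 added, H2afx differed by -0.04 in total RNA, with 12.2 to 18.3 FPKM in control and 14.4 to 14.6 FPKM in SMA, so its genotypes then overlapped. The wide difference of H2afv rested on SMA library 1, which read 35.2 FPKM against 63.3 FPKM in SMA library 2 and 69.8 and 77.6 FPKM in control. For the fits without 1 library, the share of all genes called is not given. The counts that follow therefore say nothing particular to the variants. No gene was called without control library 1 or without control library 2, and 4 were called without SMA library 2 (H2afv at -1.06, H1f0 at -0.73, H2afz at -0.54 and H2afy at -0.22).

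In early-symptomatic polysomal RNA, H2afz, H2afv, H2afx and H1f0 were called lower, 4 of 8 against 12.5% of all genes called and 6.82% called lower. H2afx, the H2A.X gene, read 14.3 and 13.4 FPKM in control against 8.36 and 9.41 FPKM in SMA. The genotypes did not overlap and stood further apart than in total RNA. The difference was -0.64 (SE 0.11, n = 2 each, adjusted p = 0.37, limma). H2afz read 651 and 618 FPKM in control against 405 and 459 FPKM in SMA (-0.56, SE 0.15, adjusted p = 0.386). The H2afz mean was 31.9% lower in SMA with no overlap. Its call was lost without any 1 of the 4 libraries (-0.65 to -0.47) and after the length correction described below. Its close copy H2afv read 74.5 and 84.2 FPKM against 53.0 and 60.0 FPKM (-0.49, SE 0.11, adjusted p = 0.386). The linker histone gene H1f0 read 46.8 and 55.4 FPKM against 39.5 and 38.7 FPKM (-0.38, SE 0.11, adjusted p = 0.387). Both H2afv and H1f0 were lower in each SMA library than in either control.

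Both genes of the H3 variant also stood lower on early-symptomatic polysomes without passing the test. H3f3a read 743 and 582 FPKM in control against 488 and 445 FPKM in SMA (-0.50, SE 0.20, adjusted p = 0.42), and H3f3b read 490 and 404 FPKM against 396 and 347 FPKM (-0.26, SE 0.17, adjusted p = 0.508). The controls differed from each other by more than the SMA libraries did in both genes. The macroH2A genes went their own ways. H2afy overlapped between genotypes at 44.9 and 50.4 FPKM in control against 43.6 and 46.9 FPKM in SMA (-0.07, adjusted p = 0.703), and H2afy2 was the 1 variant that stood higher in SMA, at 39.6 and 39.8 FPKM against 33.7 and 36.7 FPKM (0.17, SE 0.07, adjusted p = 0.423). Groups did not overlap for 7 of the 8, against 50.5% of all genes, and the median difference of the 8 was -0.43 against -0.01 for all genes.

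**Figure D2:**
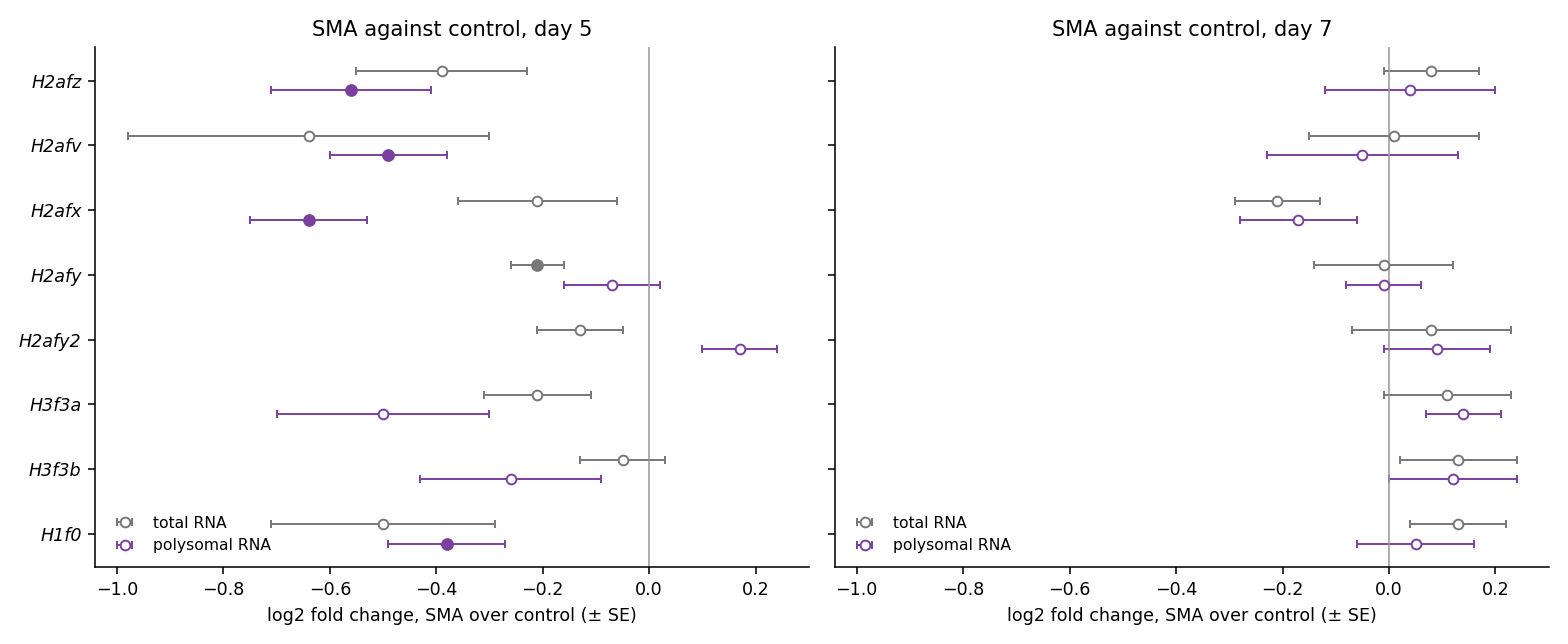
Difference of SMA from control on the log2(FPKM + 0.1) scale for the 8 variants in the 4 stages and fractions (points are estimates, bars the SE, filled points passed an unadjusted p under 0.05, grey line at 0). At day 5 the points lie below 0 except H2afy2 in polysomal RNA (H3f3b in total RNA changes sign under 2 other normalizations), and at day 7 they lie within 0.21 of 0.

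Over all genes, the early-symptomatic difference of SMA from control moved with gene length. Its median went from -0.23 in the shortest 20% of protein-coding genes to 0.20 in the longest 20% in total RNA and from -0.24 to 0.18 in polysomal RNA, while at day 7 the medians over the same length classes lay between -0.02 and 0.03. By their longest annotated transcript, H2afz, H2afv and H2afx (1069 to 1633 bases) are among the shortest 20%, H1f0, H2afy2, H3f3b and H3f3a (2055 to 2841 bases) in the next 20%, and H2afy (4018 bases) is longer than 60% of these genes. The longest coding transcript of H2afy is shorter, at 2046 bases, a length within the second 20% (2019 to 3015 bases). After the length trend was taken out, the median polysomal difference of the variants was -0.30, and H2afx was the 1 gene still called (-0.47). With AC122428.1 added, H2afx differed by -1.08 and stayed past the unadjusted threshold, and that small RNA gene itself differed by -1.45 without passing it. In the fits without 1 library that follow, the share of all genes called is again not given, so their calls are not read as particular to the variants. No gene was called in polysomal RNA without SMA library 1. Without SMA library 2, H2afv (-0.58) and H2afx (-0.72) were called, without control library 1, H2afv (-0.58), H2afx (-0.59) and H1f0 (-0.50), and without control library 2, H2afx (-0.68), H3f3a (-0.67) and H1f0 (-0.26) lower and H2afy2 (0.24) higher.

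At the late-symptomatic stage none of the 8 variants was called in total RNA, where 9.54% of all genes were, or in polysomal RNA, where 10.7% were. The median differences were 0.08 and 0.05. H2afx came nearest in total RNA. It read 13.7, 14.9 and 13.6 FPKM in control against 12.2, 13.3 and 11.1 FPKM in SMA, so every SMA library lay below every control (-0.21, SE 0.08, n = 3 each, adjusted p = 0.529). With AC122428.1 added the difference was 0.07, so its sign depends on that neighbour, and in polysomal RNA it was -0.17 as listed and -0.27 with the neighbour added. H3f3a came nearest in polysomal RNA, at 327, 300 and 347 FPKM in control against 354, 368 and 351 FPKM in SMA (0.14, SE 0.07, adjusted p = 0.523), where every SMA library lay above every control. These 2 were the variants whose late-symptomatic groups did not overlap, 1 of 8 in each fraction, against 15.0% of all genes in total and 16.1% in polysomal RNA. Control library 3 held the highest control value of H2afv, H2afy, H2afy2, H3f3a, H3f3b and H1f0 in both fractions. Without it, H3f3a (0.24), H3f3b (0.25) and H1f0 (0.22) were called higher in total RNA and H3f3a (0.19) and H3f3b (0.25) in polysomal RNA. H2afx was called lower without SMA library 2 in total RNA (-0.27) and without SMA library 1 in polysomal RNA (-0.26). The share of all genes called in these fits is not given, so the calls are not read as particular to the variants.

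The difference between the stages was tested itself, as the change in the SMA effect from day 5 to day 7. In total RNA it passed the unadjusted threshold for H2afz, at 0.47 (SE 0.17, adjusted p = 0.486), and for H1f0, at 0.63 (SE 0.22, adjusted p = 0.486), 2 of 8 against 10.1% of all genes. In polysomal RNA it passed for H3f3a at 0.64 (SE 0.16, adjusted p = 0.271), H2afz at 0.60 (SE 0.23, adjusted p = 0.348), H2afx at 0.47 (SE 0.16, adjusted p = 0.324) and H1f0 at 0.43 (SE 0.17, adjusted p = 0.354), 4 of 8 against 13.7%. All 6 were positive, which is to say that SMA stood lower relative to control at day 5 than at day 7, and none passed after adjustment, where 0.125% of all genes did in total and 0.597% in polysomal RNA. For the fits without 1 library and the other normalizations below, the share of all genes called is not given, so their calls are not read as particular to the variants. H3f3a was called without each of the 10 polysomal libraries in turn, between 0.46 and 0.82. Without SMA early-symptomatic library 1 or control early-symptomatic library 2, none was called in total RNA. In polysomal RNA H2afx lost the call without control or SMA early-symptomatic library 1 (range 0.38 to 0.55), H2afz without 6 of the 10 libraries (0.47 to 0.75) and H1f0 without 7 (0.31 to 0.55). After the length trend was taken out, H1f0 alone passed in total RNA (0.50, adjusted p = 0.738) and H3f3a alone in polysomal RNA (0.56, adjusted p = 0.355), and after quantile normalization H1f0 alone in total (0.67) and H3f3a (0.40) and H2afx (0.50) in polysomal RNA. With AC122428.1 added, the stage difference of H2afx in polysomal RNA was 0.81 and no longer passed (adjusted p = 0.389), and in total RNA it was 0.11 against 0.00 as listed. Stage and any batch in which the stages were processed cannot be told apart.

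Translation efficiency (TE), the polysomal level relative to the total level, was compared between genotypes as an interaction. At the early-symptomatic stage H2afy2 was called higher in SMA, 1 of 8 against 2.32% of all genes, at 0.31 (SE 0.11, adjusted p = 1, limma). Its polysomal and total means were both 35.2 FPKM in control, and they were 39.7 and 32.0 FPKM in SMA. H2afx stood at the other end at -0.43, short of the threshold, with a polysomal excess of 69.3% over total RNA in control and 25.5% in SMA, and at -1.04, again short of it, with AC122428.1 added. With the replicate number as a block, the call passed from H2afy2 (0.31, adjusted p = 1) to H2afx (-0.43, adjusted p = 1). The median of the 8 was -0.02 against -0.03 for all genes. The H2afy2 call was lost without control total library 1, SMA total library 1, control polysomal library 1 or either SMA polysomal library, over a range of 0.25 to 0.37. At the late-symptomatic stage 0 of 8 were called, against 2.07% of all genes, and the difference of the TE effect between stages was called for 0 of 8, against 2.75%. For H2afx with AC122428.1 added these were -0.34 (0.04 as listed) and 0.69 (0.47 as listed).

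Within each genotype and stage, polysomal RNA was then compared with total RNA, and H3f3a and H3f3b in late-symptomatic SMA brains were higher in polysomal RNA. The median log2 ratio of the 8 was 0.40 in control and 0.33 in SMA at day 5, and 0.24 and 0.25 at day 7, against at most 0.05 for all genes. For these ratios an adjusted p under 0.05 was required. The other groups gave no calls among the variants, so the calls were 2 of 8 in late-symptomatic SMA brains, against 11.0% of all genes called there. H3f3a read 255, 254 and 274 FPKM in total and 354, 368 and 351 FPKM in polysomal RNA. The fractions did not overlap and differed by 0.45 (SE 0.05, n = 3 each, adjusted p = 0.00907, limma), and the call held without each of the 6 libraries. H3f3b read 212, 227 and 228 FPKM in total against 253, 265 and 260 FPKM in polysomal RNA, a difference of 0.23 (SE 0.04, adjusted p = 0.0381) that lost the call without any 1 of the 6 libraries (0.19 to 0.24). With the replicate number as a block, H3f3a (adjusted p = 0.0379) and H3f3b (adjusted p = 0.0416) kept the call and H2afy2 was called as well (0.30, adjusted p = 0.0449).

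In the other 3 groups 0 of 8 variants were called, where 1.32% (control early), 7.12% (control late) and 0.334% (SMA early) of all genes were (limma). At an unadjusted p under 0.05, 4, 4 and 1 of the 8 would pass. The last of these by p (H3f3a, H2afz and H2afy2) ranked 2622, 3717 and 889 among the 15247 genes tested. At least that many genes would therefore pass too, and the counts are not read as particular to the variants. In early-symptomatic control, H2afx stood 0.76 higher in polysomal than in total RNA, H3f3a 0.68, H2afz 0.56 and H3f3b 0.54, with adjusted p-values between 0.111 and 0.157, while H2afy and H2afy2 stood at 0.00. With AC122428.1 added, H2afx stood higher in polysomal RNA by 1.56 in control early and 0.52 in control late, where it was then called, and by 0.52 in SMA early and 0.17 in SMA late. In late-symptomatic control the differences of H3f3a (0.43, SE 0.13, adjusted p = 0.12) and H3f3b (0.24, SE 0.16, adjusted p = 0.424) were close in size to those called in late-symptomatic SMA, with a wider spread. H2afv differed by 0.11, 0.07, 0.26 and 0.01 in control early, control late, SMA early and SMA late, and its libraries overlapped between fractions in all 4.

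The ages were compared next, within each genotype and fraction. Age and any batch in which the stages were processed cannot be told apart, so "fell" and "rose" describe day 7 against day 5 only. The libraries differed by stage in other ways. Gm26377 was the most abundant gene in every day 5 library (3.7% to 15.7% of the summed FPKM) and in no day 7 library. In total RNA 26970 to 28070 genes were above 0 at day 5, against 23630 to 25060 at day 7. Between day 5 and day 7, the H2A.Z gene H2afz, the macroH2A gene H2afy and both H3 variant genes fell in control brains, by between 30.1% and 51.0% of their day 5 mean over both fractions, and H2afx rose in total RNA as listed. An adjusted p under 0.05 was again required. In control total RNA 5 of 8 variants were called, 4 lower and 1 higher, against 21.2% of all genes (9.46% lower). H2afz read 407 and 453 FPKM at day 5 and 228, 257 and 249 FPKM at day 7. The ages did not overlap and the drop was far wider than the spread at either age. The difference was -0.81 (SE 0.08, adjusted p = 0.0139, limma). H3f3a went from 408 and 415 FPKM to 221, 220 and 288 FPKM (-0.77, SE 0.14, adjusted p = 0.0344), and H3f3b from 306 and 306 FPKM to 187, 186 and 240 FPKM (-0.59, SE 0.13, adjusted p = 0.0491). H2afy went from 47.8 and 47.2 FPKM to 26.8, 29.4 and 30.7 FPKM (-0.72, SE 0.07, adjusted p = 0.0131). Of the 8, these 4, H2afv and H2afy2 stood lower at day 7 without overlap, as did 30.9% of all genes. H1f0 overlapped between ages, and H2afx as listed stood higher. Control library 3 was the highest of day 7 in all of the 4 but H2afz. H2afv (-0.45) and H2afy2 (-0.48) were lower and H1f0 (-0.11) was near its day 5 level, without passing the test.

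H2afx went the other way as listed. It read 8.86 and 7.54 FPKM at day 5 and 13.7, 14.9 and 13.6 FPKM at day 7 in control total RNA, with no overlap (0.77, SE 0.10, adjusted p = 0.019). In SMA total RNA it read 6.68 and 7.48 FPKM at day 5 and 12.2, 13.3 and 11.1 FPKM at day 7 (0.77, SE 0.12, adjusted p = 0.0469), and in SMA polysomal RNA 8.36 and 9.41 FPKM and then 16.8, 13.2 and 14.5 FPKM (0.73, SE 0.13, adjusted p = 0.0326). In control polysomal RNA the difference was 0.26 (adjusted p = 0.101). The opposite-strand AC122428.1 inside H2afx fell in control polysomal RNA (-1.94, adjusted p = 0.0261). It did not pass the test in control total (-1.10, adjusted p = 0.131), SMA total (-0.39, adjusted p = 0.557) or SMA polysomal RNA (-1.07, adjusted p = 0.338), and in both SMA fractions its ages overlapped. With it added, the age difference of H2afx was 0.20 (adjusted p = 0.515), -0.84 (adjusted p = 0.0192), 0.31 (adjusted p = 0.29) and -0.03 (adjusted p = 0.977) in control total, control polysomal, SMA total and SMA polysomal RNA. The age difference of H2afx therefore depends on how reads were divided between these overlapping genes, which was not tested.

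In control polysomal RNA 4 of 8 variants fell and none rose, against 20.6% of all genes called (8.30% lower). H3f3a went from 743 and 582 FPKM to 327, 300 and 347 FPKM (-1.02, SE 0.15, adjusted p = 0.0261), and H3f3b from 490 and 404 FPKM to 211, 227 and 285 FPKM (-0.90, SE 0.18, adjusted p = 0.0393). H2afz went from 651 and 618 FPKM to 270, 312 and 396 FPKM (-0.98, SE 0.19, adjusted p = 0.039), and H2afy from 44.9 and 50.4 FPKM to 32.4, 32.3 and 35.4 FPKM (-0.51, SE 0.08, adjusted p = 0.0276). Of the 8, every day 7 library lay below every day 5 library in these 4 and in H2afv, as it did for 31.6% of all genes. H2afy2 and H1f0 overlapped between ages, and H2afx as listed stood higher at day 7. The H3f3a mean at day 7 was 49.0% of its day 5 mean.

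In SMA brains the differences with age of H2afz and H3f3a in polysomal RNA, and of H2afz in total RNA, were smaller than in control by the test of the stages given above, at an unadjusted p under 0.05 only (adjusted p = 0.348, 0.271 and 0.486), and both H2afz calls were lost without some of the libraries and after the length correction, as given there. H2afx was the 1 gene of 8 called in SMA total RNA, against 5.56% of all genes. H3f3a, at 359 and 355 FPKM and then 255, 254 and 274 FPKM, differed by -0.45 (adjusted p = 0.0506), and H3f3b by -0.41 (adjusted p = 0.0515). In SMA polysomal RNA 5 of 8 were called, 3 lower and 2 higher, against 22.7% of all genes. H3f3a fell by 0.38 (adjusted p = 0.0346), H3f3b by 0.51 (adjusted p = 0.0249) and H2afy by 0.45 (adjusted p = 0.0293). H1f0 rose by 0.27 (adjusted p = 0.0485), from 39.5 and 38.7 FPKM to 49.7, 47.9 and 44.1 FPKM, where the control means were 51.1 and 45.9 FPKM. H2afv read 53.0 and 60.0 FPKM and then 62.3, 53.2 and 49.3 FPKM, which overlapped (-0.05). With Gm17275 added, the H3f3a difference was -0.34 (adjusted p = 0.0551).

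Leaving out 1 library ended most of the age calls, though no age difference of a called gene changed sign. The share of all genes called in these fits is not given, so a count such as 7 of 8 says nothing particular to the variants. In control total RNA no gene was called without either day 5 library or without day 7 library 2, H2afy was the 1 left without day 7 library 1 (-0.66), and 7 of 8 were called without day 7 library 3, H1f0 being the exception. In control polysomal RNA H3f3a alone was called without day 5 library 2 (-1.20) and none without each of the other 4. In SMA total RNA H1f0 alone was called without day 5 library 2 (0.75) and none without each of the other 4 libraries, and in SMA polysomal RNA H3f3b alone without day 5 library 2 (-0.61) and none without each of the other 4.

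**Figure D3:**
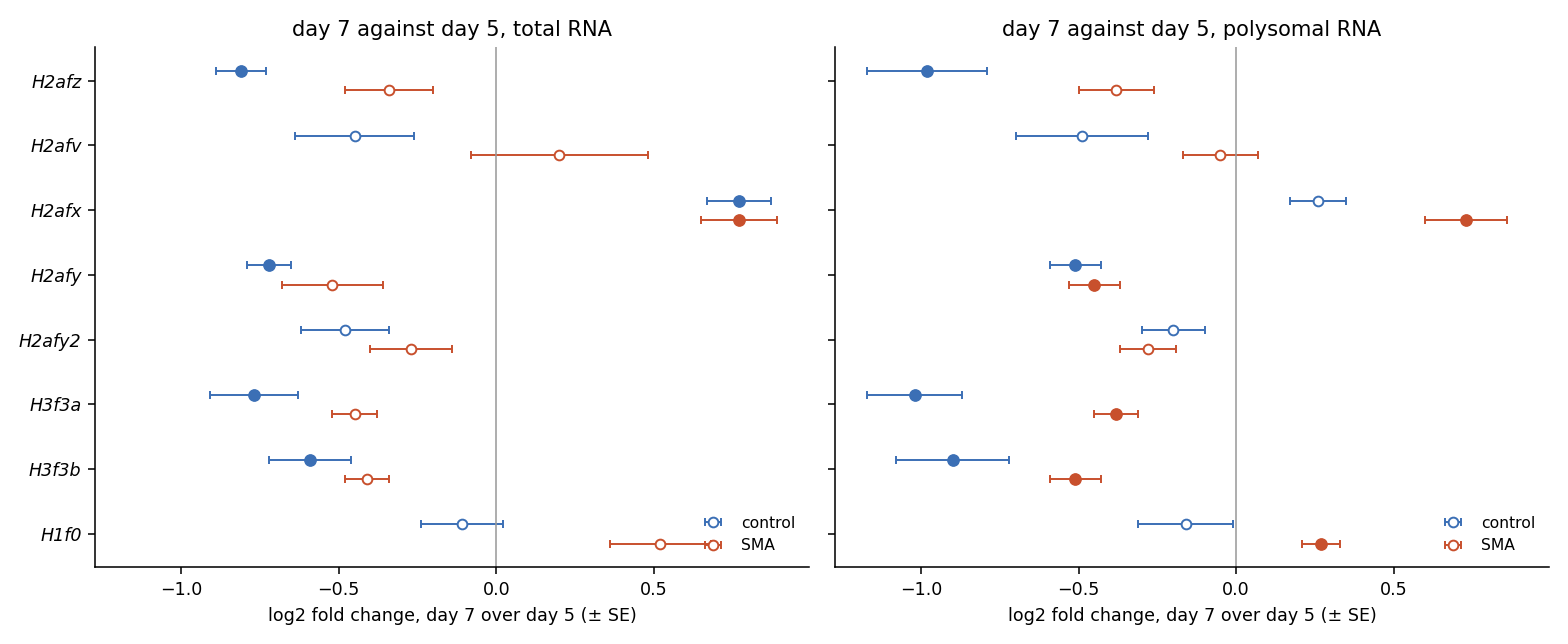
Difference of day 7 from day 5 on the log2(FPKM + 0.1) scale for the 8 variants in each genotype and fraction (1 panel per fraction, points are estimates, bars the SE, filled points passed an adjusted p under 0.05, grey line at 0). H2afz, H2afy, H3f3a and H3f3b lie below 0 in both fractions of both genotypes. H2afx lies above 0 as listed but at -0.84 and -0.03 in polysomal RNA of control and SMA once its overlapping gene is added. Age and any processing batch of the stages cannot be told apart.

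Ratios between related members show the balance within each pair. H3f3a exceeded H3f3b in all groups. Their ratio was 1.33 and 1.35 in control and 1.20 and 1.21 in SMA early-symptomatic total RNA, and 1.44 to 1.52 against 1.23 to 1.28 in polysomal RNA, so the genotypes did not overlap at day 5. At day 7 they overlapped, with means of 1.19 and 1.18 in total and 1.36 and 1.38 in polysomal RNA. H2afz exceeded H2afv between 3.68-fold and 8.74-fold over the libraries. The mean ratio in control fell from 5.84 to 4.59 in total and from 8.04 to 5.72 in polysomal RNA with age. H2afy2 stood at 0.740 of H2afy in control and 0.782 in SMA early-symptomatic total RNA, where the genotypes overlapped, and at 0.739 against 0.878 in polysomal RNA, where they did not. H2afx was 0.0192 of H2afz in control total RNA at day 5 and 0.0574 at day 7, or 0.0359 and 0.0704 with AC122428.1 added. In control polysomal RNA the ratio was 0.0219 and 0.0518 as listed, and 0.0697 and 0.0780 with it added, where the ages overlapped. These ratios carry no test. With 2 libraries per group, a lack of overlap at day 5 is common. Of all genes, 47.6% in total and 50.5% in polysomal RNA did not overlap there, and the share of other ratios is not given.

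**Figure D4:**
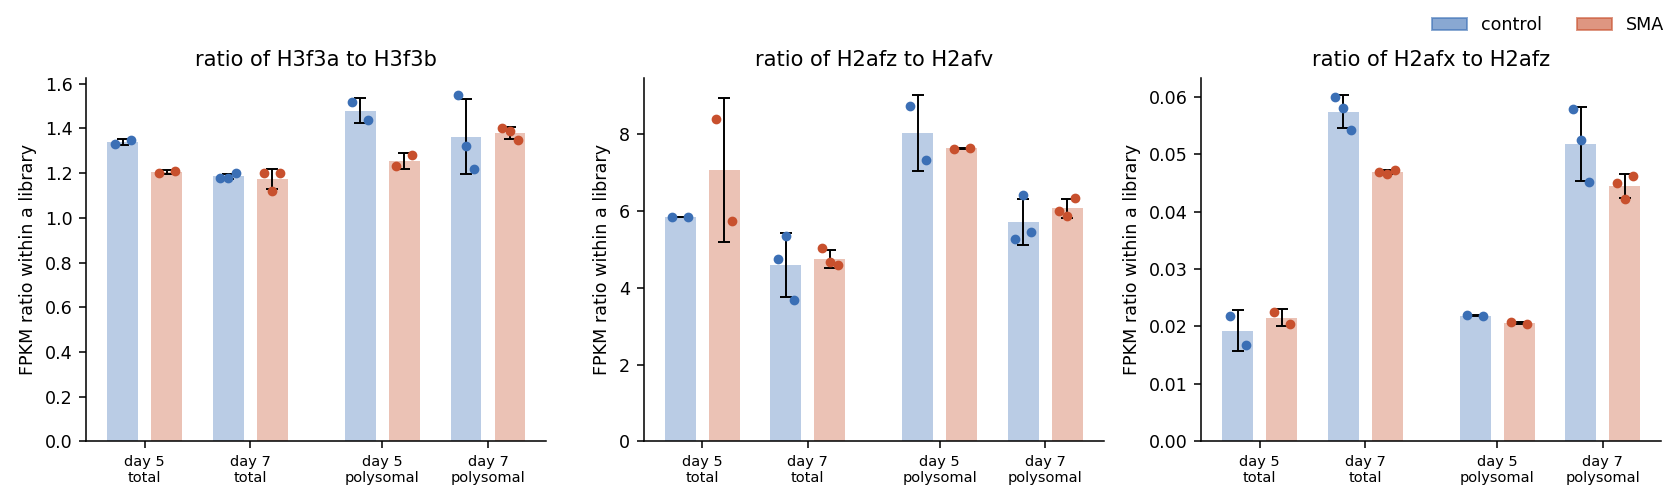
Ratios of FPKM between related variants in each group (1 panel per ratio, axes from 0; bars are means, lines the SD, points the libraries, n = 2 at day 5 and n = 3 at day 7). H3f3a to H3f3b stood at 1.34 in control and 1.21 in SMA total RNA at day 5, and the ratio of H2afx to H2afz, 0.0192 in control total RNA at day 5, was 0.0574 at day 7 (as listed; 0.0359 and 0.0704 with AC122428.1 added).

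Over the 20 libraries, H3f3a and H3f3b rose and fell together (Pearson's r = 0.96 on log2 values), as did H2afz with H3f3a (0.92) and with H3f3b (0.91). H1f0 and H2afv correlated at 0.70, and H2afx and H2afy at -0.50, which was 0.28 with AC122428.1 added to H2afx. These values are descriptions, since the libraries share groups and stages. Among 13002 other protein-coding genes, those most like H3f3a were Fkbp4, a co-chaperone of Hsp90, Polr2d, a subunit of RNA polymerase II, and Rsl24d1, a ribosome assembly factor (0.97 each), and those most like H3f3b were Snrnp40, a component of the spliceosome, Dazap1, an RNA-binding protein, and again Rsl24d1 (0.97 each). H2afz was most like Gins4, a subunit of the replicative helicase, Echs1, an enzyme of fatty acid oxidation, and Isy1, a splicing factor (0.95 each). H2afv was most like Cks1b, a partner of cyclin-dependent kinases (0.88), Cenpk, a centromere protein, and 2700094K13Rik (0.87 each). For H2afy they were the replication-dependent histone genes Hist1h3b (0.95) and Hist1h1c (0.94), with Nnt, a mitochondrial transhydrogenase (0.94). As listed, H2afx was most like S100a13 (0.96), Bsg (0.95) and Uqcrb, a subunit of respiratory complex III (0.93). H2afy2 was most like Enpp1 and Carhsp1 (0.91) and Prcc (0.90), and H1f0 like Crip1, Ptma (0.89 each) and Dpy30 (0.88).

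The machinery that handles the variants was described from gene lists. Among 8 genes for deposition of the H3 variant, early-symptomatic total RNA held 1 called higher in SMA, the remodeller Atrx (0.34), and 1 lower, Dek (-0.71), and polysomal RNA held 2 higher, Ubn2 of the HIRA complex (0.74) and Atrx (0.45). Late-symptomatic RNA held Hira, the chaperone subunit itself, higher in both fractions (0.20 in each). Of 11 genes for H2A.Z exchange, the ATPase Ruvbl1 was lower in early total RNA (-0.28), the ATPase Ep400 higher (0.46) and Znhit1 lower (-0.45) in early polysomal RNA, and Actr6 lower in late polysomal RNA (-0.15). Of 8 genes that phosphorylate or read H2A.X, Trp53bp1 was called higher in early total (0.46) and early polysomal RNA (0.43), the phosphatase Eya1 higher in early polysomal RNA (0.37), and the kinase Atr lower in late polysomal RNA (-0.42). Of 9 general histone chaperones, Chaf1a of the replication-coupled assembly factor was lower in early polysomal (-0.44) and Nasp in late polysomal RNA (-0.24). Over these 4 lists, 4 of 36 genes were called in early total RNA (8.25% of all genes), 7 in early polysomal (12.5%), 1 in late total (9.54%) and 4 in late polysomal RNA (10.7%). The medians of the lists lay between -0.19 and 0.30 in the 4 comparisons, and no gene of them passed an adjusted p under 0.05.

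With age, the same lists gave mixed counts. In control polysomal RNA 5 of the 9 general chaperones fell, among them Chaf1a (-1.01), Nasp (-0.52), Nap1l4 (-0.59) and Set (-0.39), and none rose. Of the H2A.Z exchange genes 4 fell and 1 rose, with Vps72, the H2A.Z-binding subunit of the exchange complexes, at -0.59 and Srcap, its ATPase, at 0.57. No H3 deposition gene was called there, and the phosphatases Eya1 (1.03) and Eya3 (0.78) rose. In all, 12 of the 36 genes were called, 9 of them lower, against 20.6% of all genes called and 8.30% lower. In control total RNA 12 of the 36 were also called, 10 of them lower (21.2% of all genes called, 9.46% lower), and there 4 H3 deposition genes were among them, with Dek (-0.43), Asf1a (-0.35) and Atrx (-0.32) lower and Cabin1 (0.30) higher. In SMA polysomal RNA 15 were called, 12 of them lower (22.7% of all genes called), including the H3 deposition genes Daxx (-0.61), Atrx (-0.70), Ubn2 (-0.62) and Asf1a (-0.33), and in SMA total RNA Eya3 (0.72) alone was called (5.56%). Of 7 other variant histones 3 were tested, while the testis histones H2afb1, H2afb2, H2afb3 and Hils1 were listed at 0 in 12 to 20 of the 20 libraries. Among the tested, the centromere histone gene Cenpa was called lower in SMA at the early-symptomatic stage (-1.11 in total and -1.07 in polysomal RNA), and with age in control polysomal RNA H2afj fell by 1.81 and H1fx rose by 0.75.

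Of 68 listed replication-dependent histone genes 55 were tested, and 18 were called lower in SMA and none higher in early total RNA, where 3.89% of all genes were called lower (median -0.52, against -0.21 for the 8 variants), with Hist1h2bf at -0.82 and Hist1h1e at -0.72. In early polysomal RNA 43 were called lower, where 6.82% of all genes were (median -1.13, against -0.43 for the variants, a difference between the lists that was not tested), with Hist1h1d at -1.09 and Hist1h2bl at -1.17. Their summed level was 6857 FPKM in control against 3522 FPKM in SMA polysomal RNA, where that of the 8 variants was 1971 and 1459 FPKM. Markers of proliferating cells moved too. All 14 listed were tested, 5 were called lower in total and 11 in polysomal RNA at day 5, with Cdk1 at -1.16 and -1.65 (adjusted p = 0.551 and 0.0305), and none was at 0 in any library. Their summed level was 219 and 215 FPKM in control against 133 and 129 FPKM in SMA polysomal RNA, and 142 and 193 FPKM against 104 and 116 FPKM in total RNA. Pcna was their most abundant gene, at 67.0 and 56.4 FPKM in control against 43.0 and 38.9 FPKM in SMA polysomal RNA. At day 7, 1 of the 14 was called lower in total RNA, Mcm3 (-0.72), and none in polysomal RNA, and of the replication-dependent histones 1 was called lower and 2 higher in total and 1 higher in polysomal RNA. Their medians at day 7 were -0.41 in total and -0.32 in polysomal RNA, with 46 and 44 of the 55 below 0, and those of the proliferation markers were -0.40 and -0.34, with all 14 below 0 in both, against 0.00 for all genes. The late sums were 90.3, 97.8 and 136 FPKM in control against 85.4, 105 and 70.0 FPKM in SMA total RNA, and 100, 118 and 151 FPKM against 103, 121 and 78.7 FPKM in polysomal RNA, where the genotypes overlapped.

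Other cell type markers moved with genotype as well. The calls are again at an unadjusted p under 0.05 (limma). Of all genes, 8.25% were called in early total, 12.5% in early polysomal, 9.54% in late total and 10.7% in late polysomal RNA. No endothelial, oligodendrocyte precursor or microglial marker passed after adjustment, the lowest adjusted p being 0.101 (Cldn5, late total RNA). All 3 endothelial markers were called lower in SMA total RNA at day 5 (Cldn5 at -1.36, Pecam1 at -0.63 and Flt1 at -0.40) and in both fractions at day 7, and Cldn5 (-1.62) alone in polysomal RNA at day 5. Their sum, mostly Cldn5, was 63.1 and 54.8 FPKM in control against 26.0 and 25.6 FPKM in SMA total RNA at day 5, and it stayed lower in every SMA library at day 7 (19.7 to 22.3 FPKM against 33.7 to 44.0 FPKM). In total RNA at day 5 both markers of oligodendrocyte precursors, Pdgfra (0.30) and Cspg4 (0.50), were called higher. Of the 5 neuronal markers Map2 was called higher in total RNA at day 5 (0.37) and day 7 (0.11), while the other 4 lay below 0 in total RNA at day 5 (median of the 5 -0.20). In early polysomal RNA, leaving aside Tubb3, the values were 0.32 for Map2 and Rbfox3, 0.20 for Stmn2 and -0.11 for Snap25, and none of these passed the test. Of the 4 microglial markers P2ry12 was called lower in total RNA at day 5 (-0.56) and day 7 (-0.41) and in polysomal RNA at day 5 (-0.43), and C1qa was called higher in total (0.62) and polysomal RNA (0.47) at day 7, with medians of the 4 between -0.13 and 0.06. None of the 4 astrocytic, 4 oligodendrocytic or 3 erythroid markers was called in any of the 4 comparisons. The part of dividing, endothelial or other cells in the differences of the variants was not tested.

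**Figure D5:**
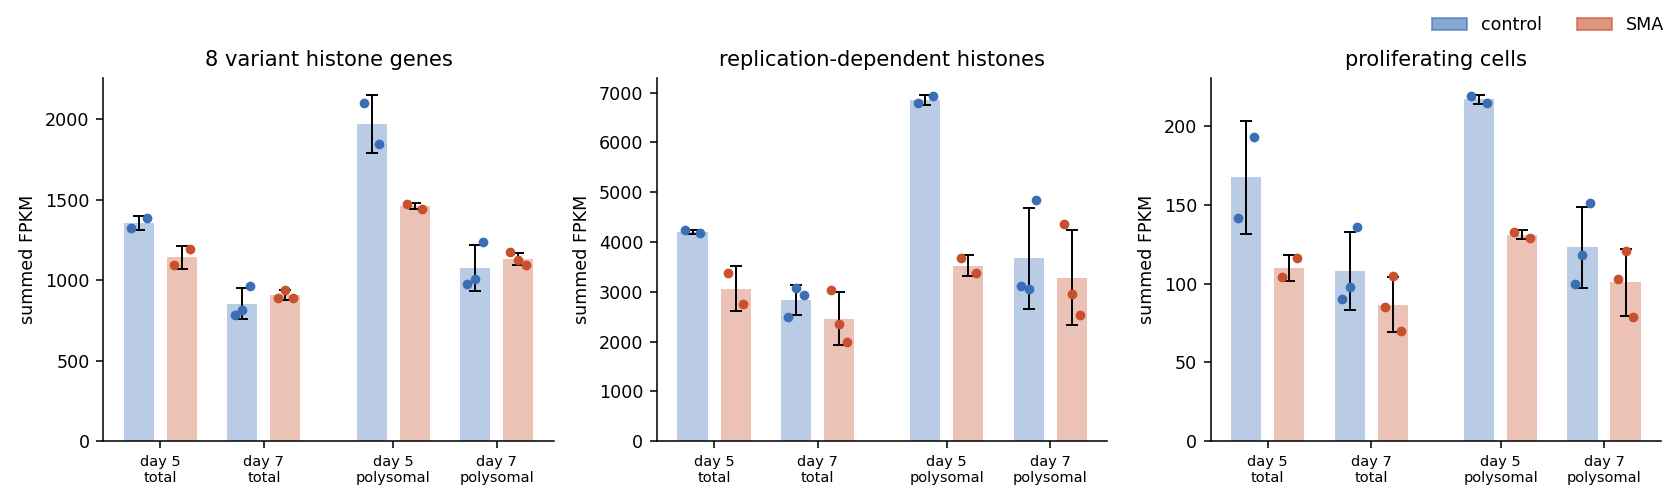
Summed FPKM of the 8 variants, the replication-dependent histones and the markers of proliferating cells in each group (1 panel per list, axes from 0; bars are means, lines the SD, points the libraries, n = 2 at day 5 and n = 3 at day 7). In early-symptomatic polysomal RNA the 3 sums stood at 1971, 6857 and 217 FPKM in control and at 1459, 3522 and 131 FPKM in SMA.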

How the data were processed

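RNA-seq of total cytoplasmic and polysomal RNA was analysed from the deposited FPKM of 45700 genes in 20 libraries. Per the labels and the study's methods, the authors aligned reads with TopHat2 2.0.14 to GRCm38.p4 with Gencode M6 and computed FPKM with Cufflinks 2.2.1. All columns were used, and no pair of libraries held identical values. The labels do not say whether same-numbered total and polysomal libraries come from 1 brain. Their deviations from the group means correlated between 0.122 and 0.539 over 9779 protein-coding genes averaging 5 FPKM or more, and between -0.0391 and 0.109 over all 15247 genes tested, so values with the replicate number as a block are given beside the comparisons of the fractions wherever they change a call. The 15247 genes averaging 1 FPKM or more over all libraries were fitted on log2(FPKM + 0.1), which understates changes of low genes, with limma 3.58.1 in R 4.3.3 (lmFit, eBayes with trend, two-sided, Benjamini-Hochberg over all genes tested). Each comparison used only its own groups. CuffDiff and Xtail, used in the study, need alignments or counts. The fit was tested on simulated data.

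The variants, gene lists and tests were chosen with earlier results of these data known. The genes named were the 8 variants, the 3 genes most like each (Pearson's r), and of each list up to 4 called genes with the lowest p. Shared windows, stem-loops and coding sequences came from Gencode M21 transcripts. The alternatives tried were other pseudocounts, filters and normalizations, a length correction, replicate blocks, 1 model over all libraries, no variance trend, other thresholds and each library left out. Adding the overlapping gene was chosen after seeing the data, and its weight by annotated length was not tested.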

Additional observations from a re-analysis of the deposited data

Results flagged for a closer look

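The difference between stages of the SMA effect passed an unadjusted p under 0.05 (limma) for 6 combinations of gene and fraction. In total RNA it was 0.47 for H2afz, with a SMA effect of -0.39 at day 5 and 0.08 at day 7, and 0.63 for H1f0, with -0.50 and 0.13. In polysomal RNA it was 0.64 for H3f3a (-0.50 and 0.14), 0.60 for H2afz (-0.56 and 0.04), 0.47 for H2afx (-0.64 and -0.17; 0.81 and no longer past the threshold with AC122428.1 added) and 0.43 for H1f0 (-0.38 and 0.05). The effect of genotype also differed between the RNA fractions for H2afy2 at day 5, by 0.31, with -0.13 in total and 0.17 in polysomal RNA. None of the 7 passed after adjustment.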

How the results depend on the processing

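With 2 or 3 libraries per group and no counts, small differences could not be resolved, and where a library was left out of a group of 2 the lone library was assumed to vary like the others. The cause of the changes below was not tested. The main counts of called variants were 1, 4, 0 and 0 for SMA against control in early total, early polysomal, late total and late polysomal RNA. An adjusted threshold left 0 called in early total, early polysomal, early TE and the stage differences of both fractions. Counts below are of the 8 variants. The share of all genes called under the same alternative is not given, so these counts say nothing particular to the variants.

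For SMA against control, 1 model over all libraries called 3 in early total RNA. In early polysomal RNA the length correction called 1 (median -0.30), quantile normalization 1 (median -0.27), the replicate block 2 and the block with length correction 2 (median -0.30). Either block called 1 in late total RNA. Early TE had 0 called with genes above 0 in every library only, with equal medians or without a variance trend, and 2 with no filter or a pseudocount of 1. For the stage difference in total RNA the length correction, quantile normalization and the block with length correction each called 1, and in polysomal RNA the length correction 1 (median 0.28), quantile normalization 2, the replicate block 1 and the block with length correction 1 (median 0.28). The TE difference between stages had 1 called with length correction or a pseudocount of 1.

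For polysomal against total RNA, an unadjusted threshold called 4, 4 and 1 in control early, control late and SMA early. The last of these ranked 2622, 3717 and 889 by p among the 15247 genes tested, so at least that many genes pass too. In the same order, 1 model called 4, 1 and, in SMA late, 1. Genes above 0 everywhere called 1 in control early and 1 in SMA late, and no filter and length correction each called 1 in SMA late. The overlapping gene added called 1 in control late. For day 7 against day 5, no filter called 3 in control total and 0 in the other 3 groups. The replicate block called 0 in all 4 (median -0.66 in control total), and with length correction 0 in both SMA fractions. SMA total had 5 called with 1 model or an unadjusted threshold. At the unadjusted threshold the last of them, H1f0, ranked 3595 by p, so at least that many of the genes tested pass too. SMA total had 4 called with length correction, 3 with a filter at 5 FPKM or quantile normalization, 2 without a trend or with a pseudocount of 1, and 0 with the overlapping gene added. That setting also called 3 in SMA polysomal RNA, gave a median of -0.68 in control polysomal RNA, and turned H2afx in SMA polysomal RNA from 0.73 to -0.03.

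Without 1 library at a time, the count ranged from 0 to 4 in early total, 0 to 4 in early polysomal, 0 to 3 in late total, 0 to 2 in late polysomal RNA, 0 to 2 for early TE, 0 to 4 and 1 to 6 for the stage difference in total and polysomal RNA, 0 to 1 for that of TE, 0 to 7 in control total and 0 to 1 in each of control polysomal, SMA total and SMA polysomal RNA with age, and 1 in late SMA polysomal against total RNA. The medians ranged from -0.23 to 0.06 for early TE, -0.04 to 0.16 in late polysomal RNA, -0.66 to -0.48 in control total RNA with age, 0.20 to 0.39 for the stage difference in total RNA and -0.08 to 0.20 for that of TE.

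Same-numbered control and SMA libraries correlated in their deviations from the group means between -0.0902 and 0.0327 over all genes tested and between -0.302 and 0.195 over the well-expressed genes, so the numbers were not taken to pair the genotypes. For the comparisons of total with polysomal RNA the replicate block changed 3 calls, those of H2afy2 and H2afx in early TE and of H2afy2 in late SMA polysomal against total RNA, and no other call of a variant.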
